A study of Mus musculus with 8 samples.

Results

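Collagen-binding and RGD-binding integrins were followed in glomerular RNA of mice with and without the tetraspanin CD151, through 10 listed subunit genes, *Itga1*, *Itga2*, *Itga5*, *Itga8*, *Itga9*, *Itgav*, *Itgb3*, *Itgb5*, *Itgb6* and *Itgb8*. Rows were taken where the gene symbol on the array equalled a listed name, which gave 12 of the 25697 probes, for 9 of the 10 genes. *Itga8* was not analysed here. Glomeruli came from male FVB/N mice, 3 weeks old, 4 of them *Cd151*+/+ controls and 4 *Cd151*-/-, with 1 mouse per Illumina MouseRef-8 v1.1 array. The *Cd151*-/- mice carry a homozygous deletion that is not restricted to a cell type. The glomeruli were collected with magnetic beads perfused through the heart, so that each sample held podocytes, endothelial and mesangial cells together, along with what remained of tubules and blood.

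Integrins are receptors made of 1 α and 1 β subunit that tie the actin cytoskeleton to the extracellular matrix, and the subunit pair sets the ligand. The α1 and α2 subunits pair with β1 and bind collagens, α1β1 with a preference for type IV collagen, the collagen of basement membranes. The α5, α8 and αv subunits recognise the arginine-glycine-aspartate (RGD) motif of proteins such as fibronectin, nephronectin, vitronectin and the latent form of TGF-β, and αv pairs with β1, β3, β5, β6 or β8. In the glomerulus α1β1 and α8β1 are known from mesangial cells, whereas the tight partners of CD151 are the laminin-binding integrins such as podocyte α3β1, which are not among these 10 genes. The comparison of genotypes therefore asks whether transcripts of the integrins that bind other matrix ligands differed in glomeruli that lacked CD151.

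Levels are normalised log2 signal, obtained from the deposited bead intensities after background correction and quantile normalisation, and a difference of 1 is a doubling of signal. Signals of different probes were not compared with each other. A probe counted as detected on an array at a detection p-value of 0.05 or lower, the share of the negative-control probes of that array that were at least as bright. Between 11291 and 12359 probes were detected per array, and the detected signals had medians of 3.00 to 4.46 times the array's background. By background the arrays fell into a higher set (*Cd151*+/+ mice 3 and 4, *Cd151*-/- mice 1 and 2) and a lower set (*Cd151*+/+ mice 1 and 2, *Cd151*-/- mice 3 and 4), so that each set held 2 mice of each genotype. *Cd151* itself was detected by each of its 3 probes in 4 of 4 *Cd151*+/+ mice and 0 of 4 *Cd151*-/- mice.

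Of the 9 genes with a probe, 5 were detected on all 8 arrays (*Itga1*, *Itga5*, *Itgav*, *Itgb5* and *Itgb6*), 3 on some arrays (*Itga2*, *Itga9* and *Itgb3*) and 1 on none (*Itgb8*). The limma test took every probe with at least 1 detection, which left 8 genes with 11 probes. None of the 8 genes passed Benjamini-Hochberg adjustment over all 14967 tested probes, of which 0.0334% were called, and at an unadjusted p of 0.05 none passed either, against 4.3% of all tested probes. Adjusted p from limma lay between 0.918 and 0.997 for the 11 probes, and the lowest unadjusted p was 0.142. In no gene were the groups without overlap, which 2.31% of all tested probes showed. The study's own tool, SAM, called 0 of the genes at a false discovery rate below 0.2.

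The log2 difference, *Cd151*-/- minus *Cd151*+/+, was above 0 for 5 genes and below 0 for 3, with a median of 0.20 against -0.0073 over all tested probes. Leaving out *Cd151*+/+ mouse 2 moved that median to 0.05 and leaving out *Cd151*-/- mouse 4 to 0.12, and it was 0.11 with uncorrected background or cubic spline normalisation. The absolute difference had a median of 0.27, against 0.21 over all tested probes. *Itgb3*, 1 of the 3 genes below 0, was detected in 1 control and in 0 *Cd151*-/- mice. It was tested only through the genotype in which it was higher, so its direction carries no weight. *Itgb5* moved to the other side of 0 without background correction or with cubic spline normalisation, which made 6 of the 8 differences positive. The 95% confidence intervals extended between 0.50 and 1.20 log2 units to either side of the estimate, with 4 mice per genotype. A difference within a probe's own bound would not have passed even an unadjusted p of 0.05. Adjustment over all tested probes would ask for a larger one.

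**Figure D1:**
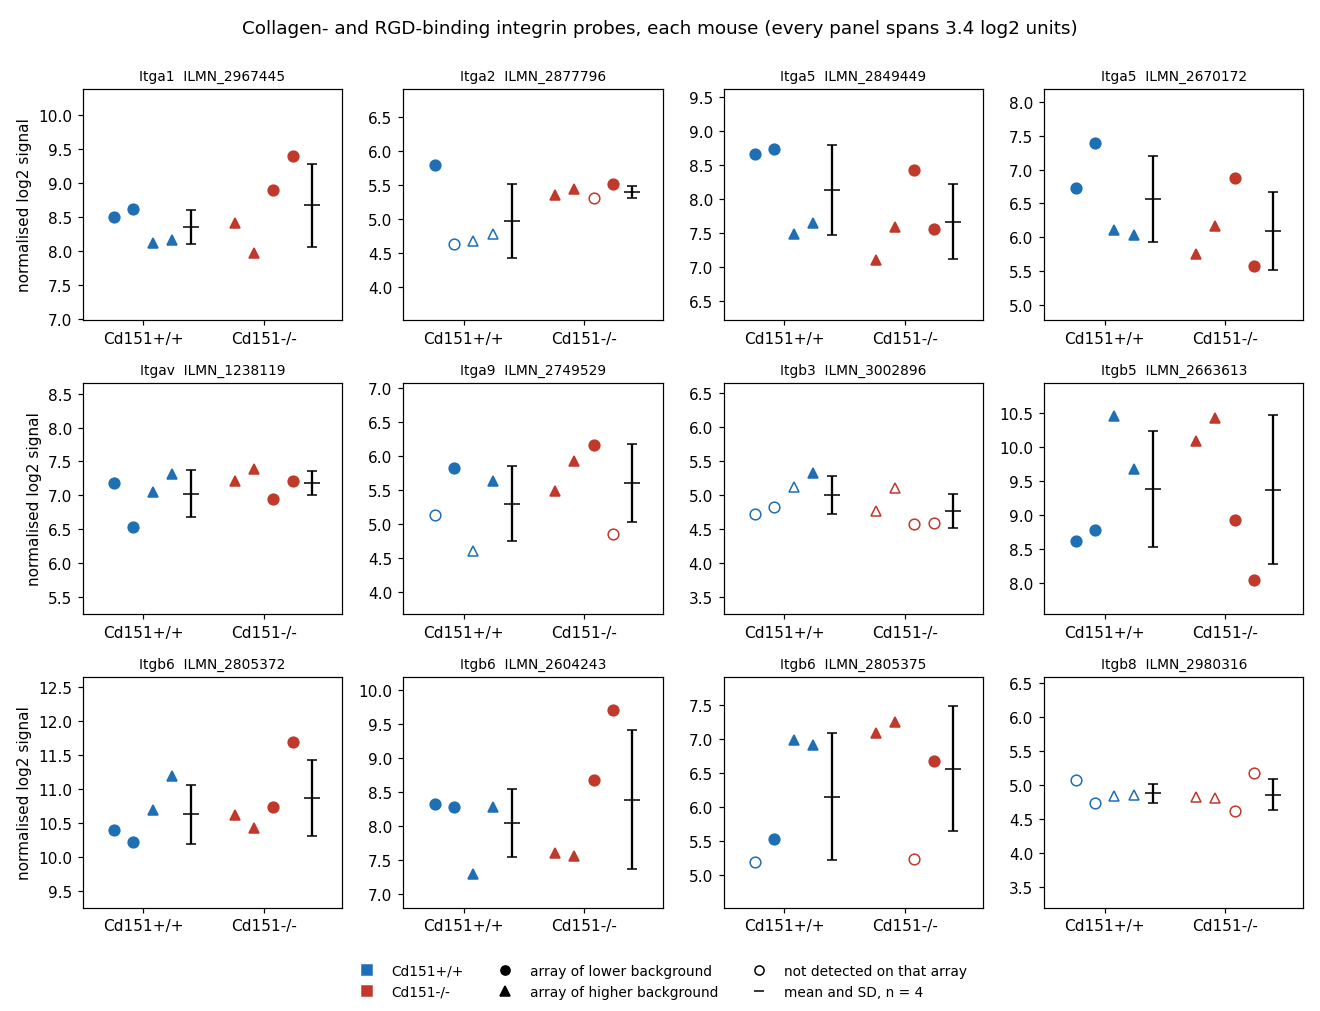
Normalised log2 signal (vertical axis) of the 12 integrin probes in each of the 4 Cd151+/+ (blue) and 4 Cd151-/- (red) mice, with circles for arrays of lower and triangles for arrays of higher background, open symbols where the probe was not detected on that array, and bars for mean and SD. The genotypes overlap in every panel, and Itgb5 separates by array set, with the lower set between 8.04 and 8.93 and the higher set between 9.68 and 10.46.

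Both collagen-binding subunits had a higher mean in *Cd151*-/- glomeruli, and neither difference exceeded the spread between mice by the tests used. *Itga1*, the α subunit of the type IV collagen receptor, read 8.50, 8.62, 8.12 and 8.15 in *Cd151*+/+ mice 1 to 4 and 8.41, 7.97, 8.90 and 9.40 in *Cd151*-/- mice 1 to 4 (ILMN_2967445, detected in every mouse). The top of the range came from *Cd151*-/- mice 3 and 4, while mouse 2 of that genotype was the lowest of all 8, and the groups overlapped. The difference was 0.32 (standard error 0.31, 95% interval -0.35 to 0.99, adjusted p = 0.918 from limma, exact permutation test p = 0.371). Without *Cd151*-/- mouse 4 it was 0.08, and without *Cd151*-/- mouse 2 it was 0.56. The arrays of lower background lay above those of higher background without overlap, from 8.50 to 9.40 against 7.97 to 8.41, and the genotype difference was 0.59 within the former and 0.05 within the latter.

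*Itga2*, the α subunit of the receptor for fibrillar collagens on epithelial cells and platelets, was close to background, at 0.968 to 1.37 times the background of its array (ILMN_2877796). Detection was reached in 1 control and in 3 *Cd151*-/- mice. The levels were 5.79, 4.64, 4.68 and 4.78 in *Cd151*+/+ mice 1 to 4 and 5.36, 5.44, 5.31 and 5.51 in *Cd151*-/- mice 1 to 4. The 4 *Cd151*-/- mice lay close together and above 3 of the controls, which were not above background, and *Cd151*+/+ mouse 1 lay above them all. With a difference of 0.43 (standard error 0.27, 95% interval -0.17 to 1.03) the gene did not pass (adjusted p = 0.918 from limma, exact permutation test p = 0.143). Without *Cd151*+/+ mouse 1, an alternative whose bound was added after seeing the data, the gene was detected in 0 of the 3 controls left. Set against the lowest detected levels, the *Cd151*-/- mean was then at least 1.04-fold higher, a bound on means that leaves out the spread between mice. The groups no longer overlapped in that fit (unadjusted p = 0.00747 and adjusted p = 1.00 from limma). *Itga2* was then tested only through the genotype in which it was higher, so the p and the lack of overlap in that fit carry no weight. The share of all tested probes without overlap was not worked out for it. With no mouse left out, the difference within the sets of arrays was 0.20 for the lower and 0.67 for the higher background.

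*Itga5*, the α subunit of the main fibronectin receptor, had the lowest difference of the 8 genes tested, and its 2 probes gave almost the same value. The brighter probe (ILMN_2849449) read 8.66, 8.75, 7.50 and 7.65 in *Cd151*+/+ mice 1 to 4 and 7.10, 7.60, 8.43 and 7.57 in *Cd151*-/- mice 1 to 4. Its difference was -0.46 (standard error 0.37, 95% interval -1.27 to 0.34, adjusted p = 0.918 from limma, exact permutation test p = 0.257). The dimmer probe (ILMN_2670172) averaged 6.57 ± 0.63 (SD, n = 4) in controls, and 6.10 ± 0.58 in the 4 *Cd151*-/- mice, a difference of -0.47. In both probes the 3 highest mice were *Cd151*+/+ mice 1 and 2 and *Cd151*-/- mouse 3, all on arrays of lower background. The difference of the brighter probe was -0.71 within the lower and -0.22 within the higher set. With limma's array weights it was -1.03, with an unadjusted p of 0.00707 and an adjusted p of 0.0894, and adjusted p over all settings ranged from 0.0894 to 1.00. Under those weights 20 genes of the lists of other integrins, ligands and adaptors passed an unadjusted p of 0.05, against 1 as reported. The share of all tested probes past that p was not worked out for the weights, so the p says nothing particular to *Itga5*.

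*Itgav*, the α subunit shared by the vitronectin and TGF-β-activating receptors, varied least among the probes detected in every mouse. It read 7.19, 6.53, 7.05 and 7.32 in *Cd151*+/+ mice 1 to 4 and 7.21, 7.39, 6.95 and 7.21 in *Cd151*-/- mice 1 to 4 (ILMN_1238119). Only *Cd151*+/+ mouse 2 fell below 6.95, and the difference of 0.17 (standard error 0.23, 95% interval -0.34 to 0.67, adjusted p = 0.920 from limma) corresponds to a signal 1.12 times that of the controls, with a 95% interval from 0.789 to 1.59 times. Without *Cd151*+/+ mouse 2 the difference was 0.0013.

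*Itga9*, whose product pairs with β1 and binds tenascin-C and VCAM-1 without the RGD motif, reached detection in 2 controls and in 3 *Cd151*-/- mice (ILMN_2749529). Its levels of 5.14, 5.83, 4.61 and 5.64 in *Cd151*+/+ mice and 5.49, 5.93, 6.16 and 4.85 in *Cd151*-/- mice spread over the same range. The difference was 0.30 (standard error 0.35, 95% interval -0.46 to 1.07, adjusted p = 0.918 from limma). Leaving out *Cd151*+/+ mouse 3 gave 0.07 and leaving out *Cd151*-/- mouse 4 gave 0.58, and with uncorrected background it was 0.13. Its signal was 0.946 to 1.64 times the background, close to the detection limit in both genotypes.

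Of the β subunits that pair with αv, *Itgb5* differed more between the sets of arrays than between genotypes. *Itgb5*, a vitronectin receptor subunit with a broad distribution, was detected in every mouse at ILMN_2663613. In *Cd151*+/+ mice 1 to 4 it read 8.62, 8.79, 10.46 and 9.68, and in *Cd151*-/- mice 1 to 4 it read 10.10, 10.43, 8.93 and 8.04. Each genotype thus held 2 mice near 8.0 to 8.9 and 2 near 9.7 to 10.5, and the means were close (9.39 in *Cd151*+/+, 9.37 in *Cd151*-/-). The genotype difference was -0.01 with a standard error of 0.55 and a 95% interval from -1.22 to 1.19 (adjusted p = 0.997 from limma), which allows a signal from 0.431 to 2.28 times that of the controls.

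All 4 high readings of *Itgb5* were on the arrays of higher background. The mean difference between the sets of arrays was 1.57, or 2.97-fold, and the deposited signal was 2.81 to 4.15 times the background on the lower set and 10.7 to 18.7 times on the higher set, so the split was present before normalisation. A split of this kind was common, since 25.2% of all tested probes had no overlap between the sets of arrays, and among the integrins it was seen in 3 of 11 probes (*Itga1*, *Itgb5* and 1 of *Itgb6*). What the sets stand for is not given in the sources used here, and their part in the spread was not tested. The residual SD of *Itgb5*, 0.98, was higher than that of 97.6% of all tested probes, and with the set in the model it was 0.41, higher than 77.4%. Within the sets the genotype difference was -0.22 for the lower and 0.19 for the higher background.

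**Figure D2:**
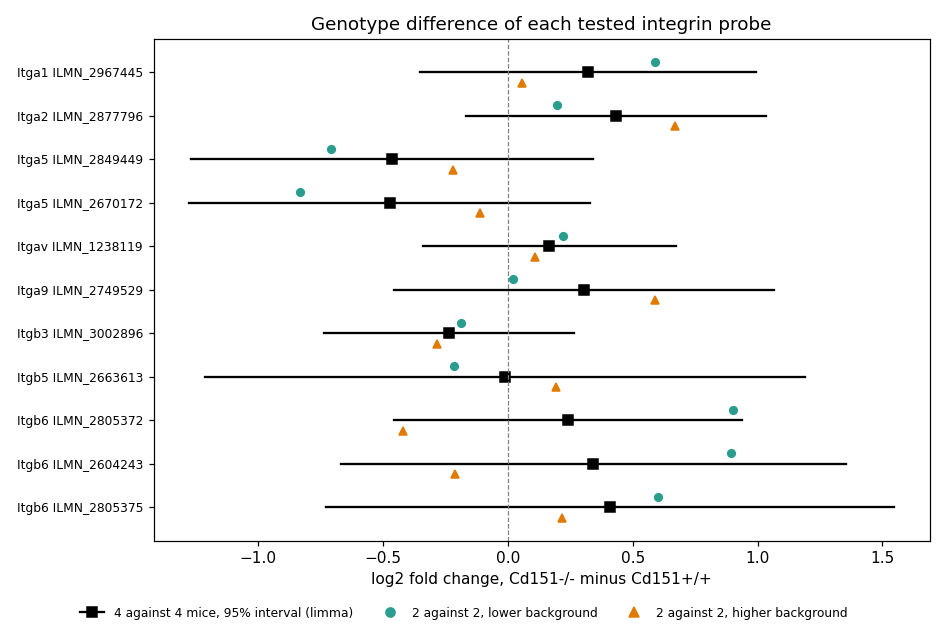
Log2 fold change, Cd151-/- minus Cd151+/+ (horizontal axis), of the 11 tested integrin probes, with squares and lines for all 8 mice and the 95% interval from limma, circles for the 2 against 2 mice on arrays of lower background and triangles for those of higher background. Every interval includes 0, and for Itgb6 the circles (0.60 to 0.90) lie to the right of the triangles (-0.42 to 0.22). Itgb3 was detected in 1 control alone, and its difference is one between readings near background.

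*Itgb6*, an epithelial subunit whose αvβ6 receptor activates latent TGF-β, was read by 3 probes that ranked the mice differently. The brightest (ILMN_2805372) read 10.39, 10.22, 10.69 and 11.20 in *Cd151*+/+ mice 1 to 4 and 10.62, 10.43, 10.73 and 11.69 in *Cd151*-/- mice 1 to 4. The second (ILMN_2604243) read 8.32, 8.28, 7.29 and 8.28 against 7.60, 7.56, 8.69 and 9.71, and its 3 lowest values were all on arrays of higher background. The dimmest (ILMN_2805375) read 5.19, 5.52, 6.99 and 6.91 against 7.09, 7.24, 5.23 and 6.68, with all 4 arrays of higher background above all 4 of lower background. *Cd151*-/- mouse 4 was the highest of the 8 mice in both brighter probes, and the groups overlapped in each.

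The differences of the *Itgb6* probes between genotypes were 0.24, 0.34 and 0.41 in that order, with standard errors of 0.32, 0.46 and 0.52 and adjusted p of 0.920, 0.920 and 0.918 from limma. In the brightest probe both *Cd151*-/- mice lay above both controls on the arrays of lower background (difference 0.90) and below both controls on those of higher background (difference -0.42), and whether the sets differed was not tested. Without *Cd151*-/- mouse 4 the difference of that probe was -0.03.

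*Itgb3*, the β subunit of the classical vitronectin receptor and of the platelet fibrinogen receptor, passed the detection limit in 1 control and in 0 *Cd151*-/- mice (ILMN_3002896). Its levels were 4.71, 4.82, 5.11 and 5.33 in *Cd151*+/+ mice 1 to 4 and 4.76, 5.11, 4.57 and 4.59 in *Cd151*-/- mice 1 to 4. The single detection, in *Cd151*+/+ mouse 4, had a detection p-value of 0.0363, and the *Cd151*+/+ mean of 4.99 was under the lowest level at which any probe was detected, 5.22 to 5.48 depending on the array, so no bound on a fold can be had. The fitted difference, between readings near background, was -0.24 (95% interval -0.74 to 0.26, adjusted p = 0.918 from limma).

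*Itgb8*, whose αvβ8 receptor also activates latent TGF-β, was not detected on any array (ILMN_2980316). Its signal stayed between 0.958 and 1.13 times the background of each array, and detection p-values lay between 0.110 and 0.653. It was not tested, and its measured means of 4.88 ± 0.14 and 4.86 ± 0.23 (SD, n = 4 each) are both background readings.

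**Figure D3:**
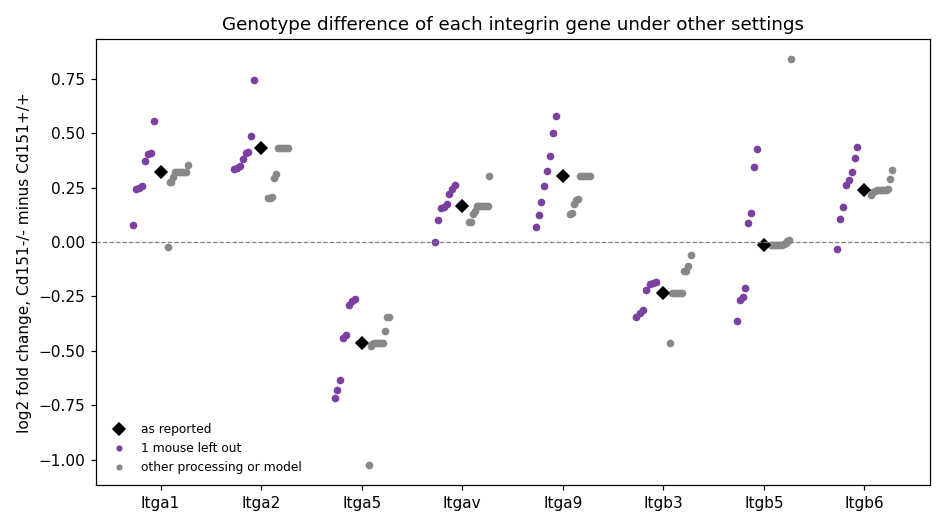
Log2 fold change, Cd151-/- minus Cd151+/+ (vertical axis), of the 8 tested integrin genes at the brightest probe, as reported (diamonds), with each mouse left out in turn (purple) and under other processing or models (grey). Itga1, Itgb5 and Itgb6 lie on both sides of 0, and Itga2, Itgav and Itga9 stay above it. Itga5, from -1.03 to -0.26, and Itgb3, from -0.46 to -0.06, stay below it in all settings that tested them. The direction of Itgb3, detected in 1 control and in no Cd151-/- mouse, carries no weight.

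The subunits that complete these receptors, and the other integrins on the array, gave a similar picture. *Itgb1*, the β partner of α1, α2, α5, α8 and α9, averaged 9.04 ± 0.17 in controls and 8.98 ± 0.33 with the deletion (SD, n = 4 each), a difference of -0.06 (standard error 0.23, adjusted p = 0.967 from limma). Of 18 other integrin genes listed, *Itgb1* among them, 10 had a detected probe and none passed an unadjusted p of 0.05. The median difference of the 10 was -0.12, with a range from -0.75 to 0.65. Of those 18 genes, 6 had a probe that was not detected on any array.

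Ligands of these receptors were looked at from 2 lists. Among 11 tested collagen genes 4 were above 0 and 7 below, none passed an unadjusted p of 0.05, and the median difference was -0.14. That median became 0.04 without *Cd151*+/+ mouse 2. *Col1a2*, 1 of the 7 below 0, was detected in 1 control and in no *Cd151*-/- mouse. It was tested only through the genotype in which it was higher, so its direction carries no weight. Among 20 tested genes for other ligands 14 were above 0 and 6 below, with a median of 0.10, and the split became 12 and 8 with cubic spline or 75th percentile normalisation, 11 and 9 without *Cd151*-/- mouse 2, and 10 and 10 without *Cd151*-/- mouse 1. Of these only *Vwf*, the von Willebrand factor gene of endothelial cells and platelets, passed an unadjusted p of 0.05 (p = 0.0437, adjusted p = 0.918 from limma, exact permutation test p = 0.0571). *Thbs1* was the 1 gene of the 20 whose groups did not overlap, against 2.31% of all tested probes. Its difference was 0.47 (p = 0.0612, adjusted p = 0.918 from limma, exact permutation test p = 0.0286). *Thbs1* was detected in 1 control and in 3 *Cd151*-/- mice. The control mean of *Vwf* was 5.83 ± 0.92 (SD, n = 4). *Vwf* was detected in 2 controls and *Vtn* in 1, and neither in any *Cd151*-/- mouse. Both are among the 6 genes below 0 and were tested only through the genotype in which they were higher. Their direction, and the p of *Vwf*, therefore carry no weight. For *Vwf* the 95% interval from limma was 0.294 to 0.979 times the control signal. Set against the lowest detected levels, its *Cd151*-/- mean was at least 1.40-fold lower, a bound on means that leaves out the spread between mice. Without *Cd151*+/+ mouse 1, at 7.15 the highest control, that bound was 1.03-fold. *Vwf* no longer passed without background correction, with the other normalisations, with an offset of 50 or in SAM. The same held with mouse number as a block and without *Cd151*-/- mouse 1 or 2. Where all 4 arrays of a genotype had to detect a gene, *Vwf* was not tested and so could not pass. In these settings no gene of the lists passed, and for the other alternatives the p of *Vwf* is not given here. Without *Cd151*+/+ mouse 1 its means were 5.45 in controls and 4.97 in *Cd151*-/- mice.

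None of the 23 tested activators and adaptors of integrins, such as talin, kindlins, paxillin and the integrin-linked kinase, passed an unadjusted p of 0.05. The differences ranged from -0.48 to 0.53 with a median of -0.04, and the median became positive without *Cd151*+/+ mouse 1 or 2 or without *Cd151*-/- mouse 1 or 4.

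**Figure D4:**
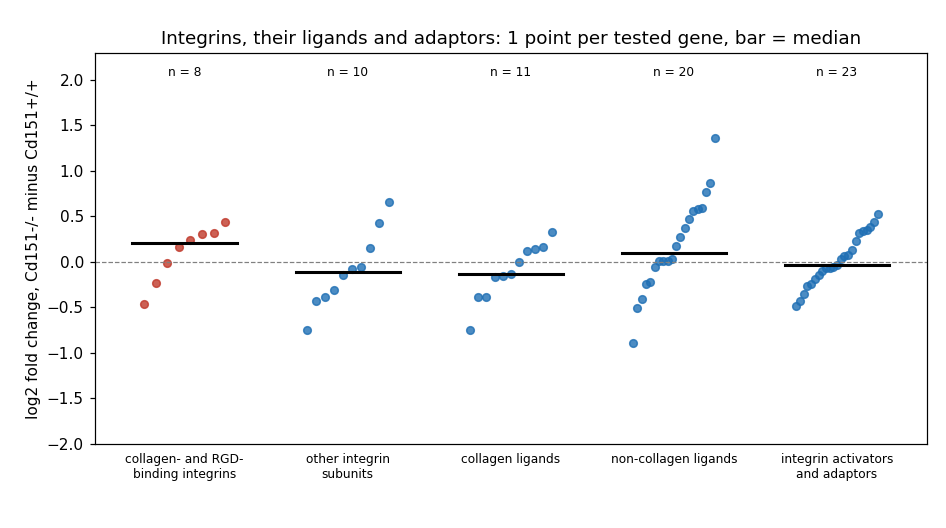
Log2 fold change, Cd151-/- minus Cd151+/+ (vertical axis), with 1 point per tested gene and a bar at the median, for the collagen- and RGD-binding integrins (red) and for other integrins, their ligands and their adaptors (blue). The medians are 0.20, -0.12, -0.14, 0.10 and -0.04 from left to right.

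Markers of the cells that could contribute these transcripts differed between samples, and in whole glomeruli fewer cells of a type and less RNA per cell cannot be told apart. All 9 tested proximal tubule markers had a higher mean in *Cd151*-/- mice, by a median of 0.61, and 1 of them, *Slc22a8*, passed an unadjusted p of 0.05. *Lrp2* and *Pck1*, whose own difference is that median, were detected in 0 controls and in 2 *Cd151*-/- mice each. They were tested only through the genotype in which they were higher, so their direction carries no weight. *Slc22a8* was detected in 1 control and in 4 *Cd151*-/- mice. The mean level of the 9 markers was 8.91 to 10.12 in controls and 9.76 to 10.76 with the deletion. *Cd151*-/- mouse 4, the highest mouse for *Itga1* and for both brighter *Itgb6* probes but not for the dimmest, was at the top. All 6 tested podocyte markers had a lower mean in *Cd151*-/- mice, by a median of 0.25 below the controls, of which *Plce1* passed an unadjusted p of 0.05, with mean levels of 11.16 to 12.22 against 11.91 to 12.13 and *Cd151*-/- mouse 4 the lowest. Without *Cd151*-/- mouse 4, 2 of the podocyte markers had a higher mean and 4 a lower one, with a median of -0.17. The podocyte genes *Cd2ap*, *Kirrel* and *Magi2*, named here after their values were seen, were not detected on any array. Mesangial and smooth muscle markers, for cells known for α1β1, lay between 9.69 and 9.95 in controls and between 9.09 and 10.30 in *Cd151*-/- mice, where mouse 4 was lowest and mouse 3 highest, and 1 of 8 markers, *Pdgfrb*, passed with a difference of -0.74.

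Endothelial markers, 9 of 10 with a lower mean in *Cd151*-/- mice, lay between 10.98 and 11.47 in controls and between 10.51 and 11.37 with the deletion. *Kdr*, 1 of the 9, was detected in 2 controls and in 0 *Cd151*-/- mice. It was tested only through the genotype in which it was higher, so its direction carries no weight. Markers of the distal tubule and collecting duct lay between 9.28 and 10.21 in controls and between 9.16 and 9.62 with the deletion, where *Scnn1a* passed with a difference of -1.06. Platelet and megakaryocyte markers lay between 5.60 and 6.41 and between 5.62 and 6.08. Of 10 leukocyte markers, 5 (*Cd68*, *Lyz2*, *Cd3e*, *Coro1a* and *Laptm5*) were detected on all 8 arrays and 3 (*Ptprc*, *Emr1* and *Cd79a*) on none, and the mean level of the 7 tested was 6.89 to 7.32 in controls and 6.77 to 7.10 with the deletion. Erythroid markers, all 5 with a lower mean in *Cd151*-/- mice, lay between 8.66 and 9.26 in controls and between 7.42 and 9.67 with the deletion, and 2 of them passed an unadjusted p of 0.05, *Alas2* with a difference of -2.57 and *Hba-a1* with -0.69. Without *Cd151*-/- mouse 4, 7 of the 10 endothelial markers had a lower mean. For the erythroid markers it was 3 of 5 without *Cd151*+/+ mouse 3 or without *Cd151*-/- mouse 1 or 3. None of the marker genes passed adjustment. The part of these cells in the integrin readings was not tested.

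**Figure D5:**
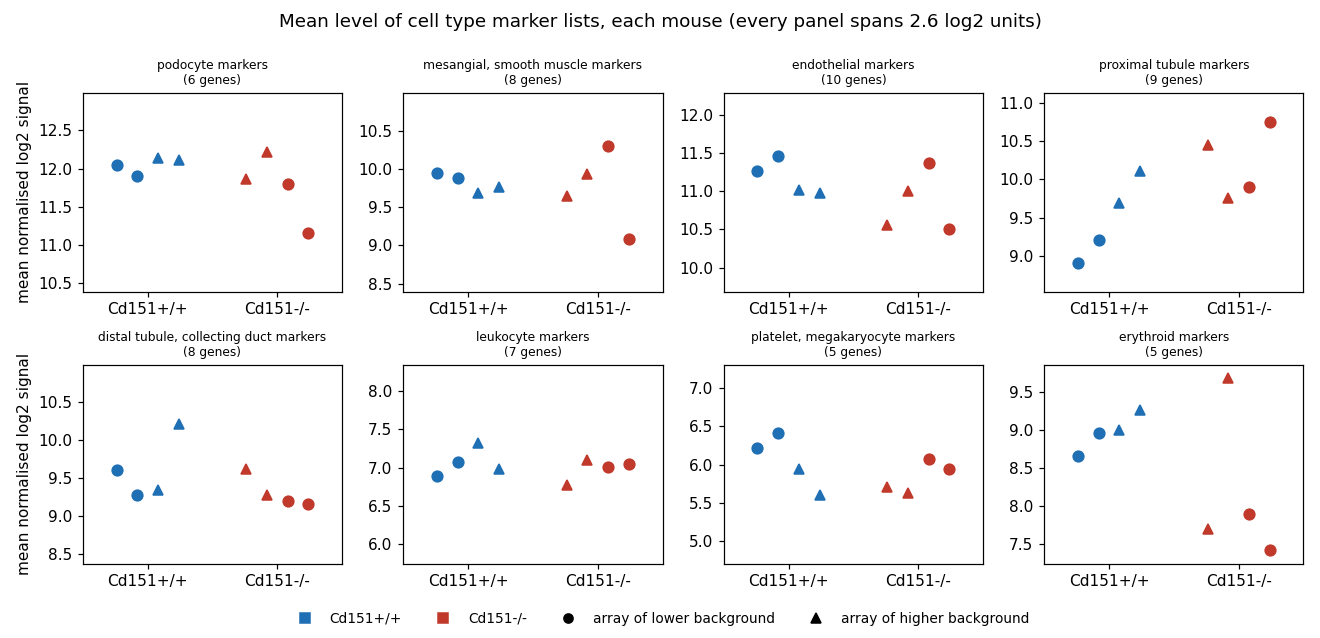
Mean normalised log2 signal of the tested genes of 8 cell type marker lists (vertical axis) in each Cd151+/+ (blue) and Cd151-/- (red) mouse, with circles for arrays of lower and triangles for arrays of higher background. Cd151-/- mouse 4, the rightmost point of each panel, has the highest proximal tubule level (10.76) and the lowest podocyte level (11.16).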

How the data were processed

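Glomerular RNA was amplified, biotin-labelled and hybridised to bead arrays, and the authors deposited for each probe and array the signal intensity exported from GenomeStudio, without background subtraction or normalisation, and a detection p-value. The cubic spline values, SAM and real-time PCR of the study were not used here. Genotypes were taken from the sample labels. In R 4.3.3, limma 3.58.1 inferred the background from the detection p-values, applied neqc (offset 16, quantile normalisation), and fitted genotype with lmFit and eBayes to the 14967 probes detected on at least 1 array. Benjamini-Hochberg adjustment ran over these probes. Exact permutation tests were two-sided over 70 relabelings, with 0.0286 as the smallest p. The brightest probe stood for a gene. Named genes were all members with every probe, *Cd151*, *Itgb1*, and genes past an unadjusted p of 0.05 in the integrin, ligand and adaptor lists. *Thbs1* was added after its values were seen. Cell type markers were named after their values were seen. Other list genes were matched by symbol or by a synonym that 1 gene holds in GRCm38.p6. The members and lists were chosen with earlier results of these data known. The fits were tested on simulated data. Array number and signal over background limit precision. Alternatives were no background correction, cubic spline or 75th percentile normalisation, an offset of 50, other detection filters, mouse number or array set as a block, other variance models, array weights, an equal-variance test, SAM, probe means and leaving out each mouse.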

Additional observations from a re-analysis of the deposited data

Results flagged for a closer look

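Among the 24 groups of 4 mice given by 12 probes and 2 genotypes, 2 held a mouse that stood apart from the rest of its group by Dixon's criterion, which chance meets in about 1 of 20 groups. *Itga2* was 5.79 in *Cd151*+/+ mouse 1, where the nearest control was at 4.78, a gap of 0.876 of the group's range. *Itgb6* at ILMN_2604243 was 7.29 in *Cd151*+/+ mouse 3, where the nearest control was at 8.28, a gap of 0.960 of the range, and that mouse did not stand apart at the other *Itgb6* probes.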

How the results depend on the processing

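No member passed Benjamini-Hochberg adjustment under any setting tried, SAM included. At an unadjusted p of 0.05 the count of members, 0 as reported, was 1 with array weights (*Itga5*) and 0 to 1 with 1 mouse left out, as was the count of members whose groups did not overlap (*Itga2* without *Cd151*+/+ mouse 1). The count over the lists of other integrins, ligands and adaptors, 1 as reported, was 0 without background correction, with cubic spline or 75th percentile normalisation, with an offset of 50, with detection on all 4 arrays of a genotype and in SAM, 2 with no detection filter and with probe means, 9 with the array set as a block, 20 with array weights, and 0 to 6 with 1 mouse left out. The share of all tested probes past that p was not worked out for these alternatives. The counts therefore say nothing particular to the lists or the members. The cause of the changes was not tested. Of 157 settings of single genes, 9 changed sign. *Itga1* was -0.024 with array weights, and *Itgb5* was 0.84 with array weights, 0.0060 without background correction and 0.0077 with cubic spline. With 1 mouse left out *Itgb5* ranged from -0.36 to 0.43 and *Itgb6* from -0.032 to 0.44. The correlation between same-numbered mice of the genotypes was -0.58 to -0.0086 over tested probes. It was not one of signal levels, for which rank correlations between any 2 arrays were 0.858 to 0.938. Every same-numbered pair lay in opposite sets of arrays, so these values cannot show whether the numbers pair the mice. With mouse number as a replicate block 0 members passed and the count over the other lists was 0.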
